A study of Homo sapiens with 24 samples.

Results

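The kinase inhibitor R406 was given to 2 human acute myeloid leukaemia lines, and its effect on mRNA in MOLM-14 was set against its effect on mRNA in KG-1. For every gene the R406 minus DMSO difference in KG-1 was subtracted from the R406 minus DMSO difference in MOLM-14, on the log2 scale. A positive value therefore means that a gene stood higher, relative to its own vehicle control, in MOLM-14 than in KG-1. The comparison used 12 of the 24 arrays of the series. They were MOLM-14 cells with 4 µM R406, MOLM-14 cells with DMSO, KG-1 cells with 4 µM R406 and KG-1 cells with DMSO, all for 24 h, with 3 arrays in each group. The dose is stated in µM by the protocol of treatment and in mM by the design text. The other 12 arrays, of U937 and HL-60 cells, entered only the estimate of the spread. Total RNA had been labelled with biotin and hybridised to Affymetrix HT U133 arrays (A set), in which a set of short probes reports on a transcript. Of the 12165 probe sets that stand for genes here, 5111 (42.0%) are of types that can match several transcripts. Nothing in the labels says that the triplicates were separate cultures. The p-values thus reflect only how far these samples scatter, which may be technical. Each line is a single culture-adapted leukaemia, so the comparison is between these lines and not between types of leukaemia.

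R406 is the active form of the drug fostamatinib. It competes with ATP in the spleen tyrosine kinase SYK and also inhibits other kinases, FLT3 among them. SYK passes signals from receptors with an ITAM motif, such as Fc receptors, and from integrins to the RAS and ERK, PI3K and phospholipase C pathways. MOLM-14 comes from a monocytic leukaemia and carries the fusion gene MLL-AF9 and a FLT3 receptor with an internal tandem duplication. KG-1 comes from an early myeloblastic leukaemia and carries a fusion of FGFR1.

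The lines differed before treatment. Between the DMSO groups 6170 of 12165 genes passed (50.7%, limma, adjusted p under 0.05), 25.8% higher and 24.9% lower in MOLM-14 than in KG-1. The DMSO arrays carried some of the markers that tell the lines apart. FLT3, the receptor for FLT3 ligand, averaged 914 ± 12.3 in MOLM-14 and 33.6 ± 3.76 in KG-1 (intensity, SD, n = 3 each). MNDA, a nuclear antigen of monocytes, averaged 159 in MOLM-14 and 6.73 in KG-1. CD34, the surface marker of blood progenitors, averaged 17.01 ± 2.30 in MOLM-14 and 613 ± 103 in KG-1. The progenitor genes KIT (17.9 in MOLM-14 and 228 in KG-1) and SPINK2 (7.81 in MOLM-14 and 236 in KG-1) lay the same way. So did MN1, at 5.89 in MOLM-14 and 50.4 in KG-1. Other markers did not follow the labels. The integrin gene ITGAM and the homeobox gene MEIS1 had lower means in MOLM-14 (66.2 and 295) than in KG-1 (487 and 591). The monocyte gene CD86 also had a lower mean in MOLM-14 (10.6) than in KG-1 (35.9). The progenitor genes PROM1 and BAALC were dim in both, at 8.08 and 5.05 in MOLM-14 and 8.39 and 5.68 in KG-1. The monocyte genes CSF1R and CD14 were dim in both, at 17.1 and 7.20 in MOLM-14 and 14.9 and 5.56 in KG-1. The median of an array was 19.1 to 21.4, so intensities under 20 are called dim here.

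One array stood apart. The values of KG-1 R406 replicate 2 correlated with those of the KG-1 DMSO arrays at a mean Pearson r of 0.969, against 0.980 for each of replicates 1 and 3. Its changes from DMSO were larger: the slope of its changes across genes on the mean changes of the other KG-1 R406 arrays was 1.16, against 0.844 and 0.870 for replicates 1 and 3. In MOLM-14 these slopes ran from 0.957 to 0.994. The ratio of 3′ to 5′ probes for ACTB, a measure of RNA integrity, was 0.967 on the log2 scale in that array and 0.793 and 0.795 in replicates 1 and 3. The mean ACTB ratio was higher with R406 than with DMSO by 0.34 in MOLM-14 and by 0.12 in KG-1. The GAPDH ratio was higher by 0.078 in MOLM-14 and by 0.10 in KG-1. An exact two-sided permutation test gave p = 0.1 for each of these 4 differences, the smallest that 3 arrays against 3 allow. The part of RNA integrity in the results was not tested. The main counts over all genes are given with and without KG-1 R406 replicate 2. The values of named genes and lists are given without it only in part, so a value given once may depend on that array.

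The R406 effect differed between the lines for about 1 gene in 3. Of 12165 genes, 3938 passed (32.4%, limma, Benjamini-Hochberg adjusted p under 0.05), 1829 of them higher in MOLM-14 than in KG-1 (15.0%) and 2109 lower (17.3%). Without KG-1 R406 replicate 2, 4096 genes passed (33.7%), 1891 higher (15.5%) and 2205 lower (18.1%). Counted over all 19724 probe sets, 5835 passed (29.6%), 2642 higher (13.4%) and 3193 lower (16.2%). Of the 3938 genes, 3630 (92.2%) passed in both fits with the same sign. A difference of at least 2-fold was reached by 338 higher and 514 lower genes. Of these 852 genes, 190 were dim in both treatments in KG-1 only and 78 in MOLM-14 only. A fall in such a line cannot be read from these arrays. Over all genes the median difference was 0.03. The shares of 15.0% higher and 17.3% lower are the background for the counts in the gene lists that follow.

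Within each line R406 moved many genes. In MOLM-14, 6750 genes passed (55.5%), of which 3736 rose (30.7%) and 3014 fell (24.8%), by at least 2-fold for 779 and 1102 of them. In KG-1, 5340 genes passed (43.9%), of which 2830 rose (23.3%) and 2510 fell (20.6%), by at least 2-fold for 417 and 534. Over all genes the effects had medians of 0.07 (MOLM-14) and 0.02 (KG-1). Without replicate 2 of R406, 2641 rose (21.7%) and 2327 fell (19.1%) in KG-1. Across genes the effects had an SD of 0.779 (MOLM-14) and 0.543 (KG-1) (0.510 without that replicate). Across the 12165 genes, which are not independent replicates, the effects in the 2 lines correlated at Pearson r = 0.694 and a Spearman rank correlation of 0.639. All arrays were normalised together. Of the 3938 genes that differed, 1336 moved the same way in both lines and further in MOLM-14, and 281 the same way and further in KG-1. A further 1325 passed in MOLM-14 and not in KG-1, 645 in KG-1 and not in MOLM-14, 55 in neither, and 296 passed in both with opposite signs. Without KG-1 R406 replicate 2 the counts in the same order were 1407, 246, 1510, 577, 54 and 302. Genes that kept their class in both fits numbered 1167, 223, 1162, 520, 17 and 242.

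**Figure D1:**
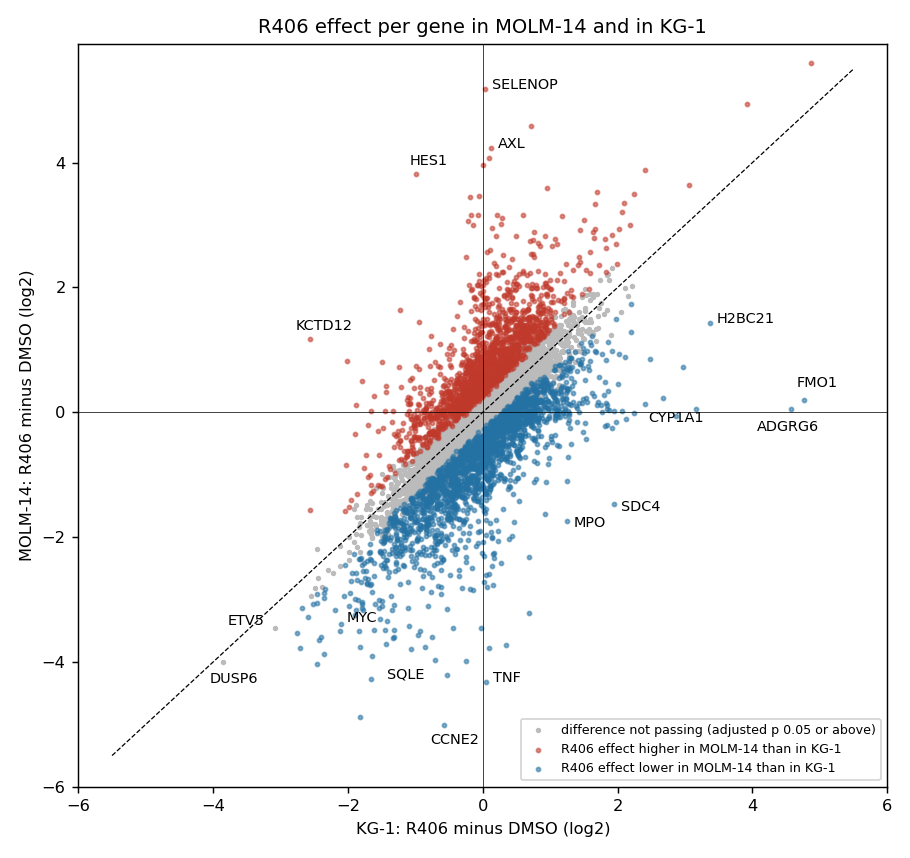
Each point is 1 of 12165 genes, with R406 minus DMSO (log2) in MOLM-14 on the vertical axis and in KG-1 on the horizontal axis; the dashed line marks equal effects. The 1829 red genes lie above the line (higher in MOLM-14) and the 2109 blue genes below it (lower in MOLM-14). DUSP6 and ETV5 lie near the line, while SELENOP and FMO1 moved in 1 line each.

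Among genes of ERK output, DUSP6 and ETV5 fell in both lines. DUSP6, a phosphatase that ERK signalling induces and that switches ERK off, had intensities of 15.7, 15.1 and 19.9 in MOLM-14 with R406 and 286, 268 and 293 with DMSO. In KG-1, DUSP6 had 47.2, 48.7 and 46.4 with R406 and 689, 782 and 630.2 with DMSO. No arrays overlapped: DUSP6 fell by 3.99 (log2) in MOLM-14 and fell by 3.85 in KG-1. The difference of -0.14 (SE 0.14) did not pass (adjusted p = 0.514), with a 95% interval from -0.44 to 0.16. ETV5, an ETS transcription factor under ERK control, fell by 3.46 in MOLM-14 and fell by 3.09 in KG-1, with a difference of -0.37 that did not pass (adjusted p = 0.106, 95% interval before adjustment from -0.72 to -0.02). The ETV5 difference was -0.17 without KG-1 R406 replicate 2. With R406, ETV5 was dim in both lines (means 9.23 in MOLM-14 and 11.2 in KG-1), and DUSP6 was dim in MOLM-14. A further fall cannot be read there, so near-equal falls do not show equal responses. One of the other probe sets of ETV5 passed with the opposite sign. The early growth response gene EGR1 behaved otherwise. Its intensities were 12.97, 12.7 and 14.8 with R406 and 186, 128 and 162 with DMSO in MOLM-14, and 9.27, 9.61 and 13.9 with R406 and 12.3, 11.1 and 9.78 with DMSO in KG-1. EGR1 was dim on every KG-1 array, and the difference was -3.42 (adjusted p = 8.97e-10). SPRY2, a feedback inhibitor of receptor signalling, was measurable in both lines and fell by 2.31 in MOLM-14 and fell by 0.25 in KG-1 (difference -2.07). Of the 18 measured genes of ERK output and feedback, 8 were lower and 2 higher for the difference, with a median of -0.38. In KG-1 with DMSO, 10 of the 18 were dim. The higher ones were DUSP4 and SPRED2, further inhibitors of the pathway.

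The targets of STAT5, a transcription factor that FLT3 internal tandem duplications activate, fell in KG-1 for the most part. Of 13 measured genes, 3 rose and 5 fell in MOLM-14, and none rose and 10 fell in KG-1. For the difference 6 were higher and 1 lower, with a median of 0.36. PIM1, a survival kinase, had 51.3, 43.3 and 52.6 with R406 and 70.03, 64.97 and 54.3 with DMSO in MOLM-14. Intensities in KG-1 were 81.7, 75.04 and 73.04 with R406 and 286, 305 and 271 with DMSO. It fell by 0.35 in MOLM-14 and fell by 1.89 in KG-1, a difference of 1.54 (adjusted p = 3.23e-08). CCND2, which encodes the cell cycle protein cyclin D2, went the other way round, as it fell by 2.31 in MOLM-14 and fell by 0.72 in KG-1 (difference -1.59). SOCS2, a feedback inhibitor of cytokine receptors, differed by 0.81. FLT3 itself rose by 1.31 in MOLM-14 and 1.12 in KG-1, and the difference of 0.19 did not pass (adjusted p = 0.53, 95% interval from -0.22 to 0.60).

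**Figure D2:**
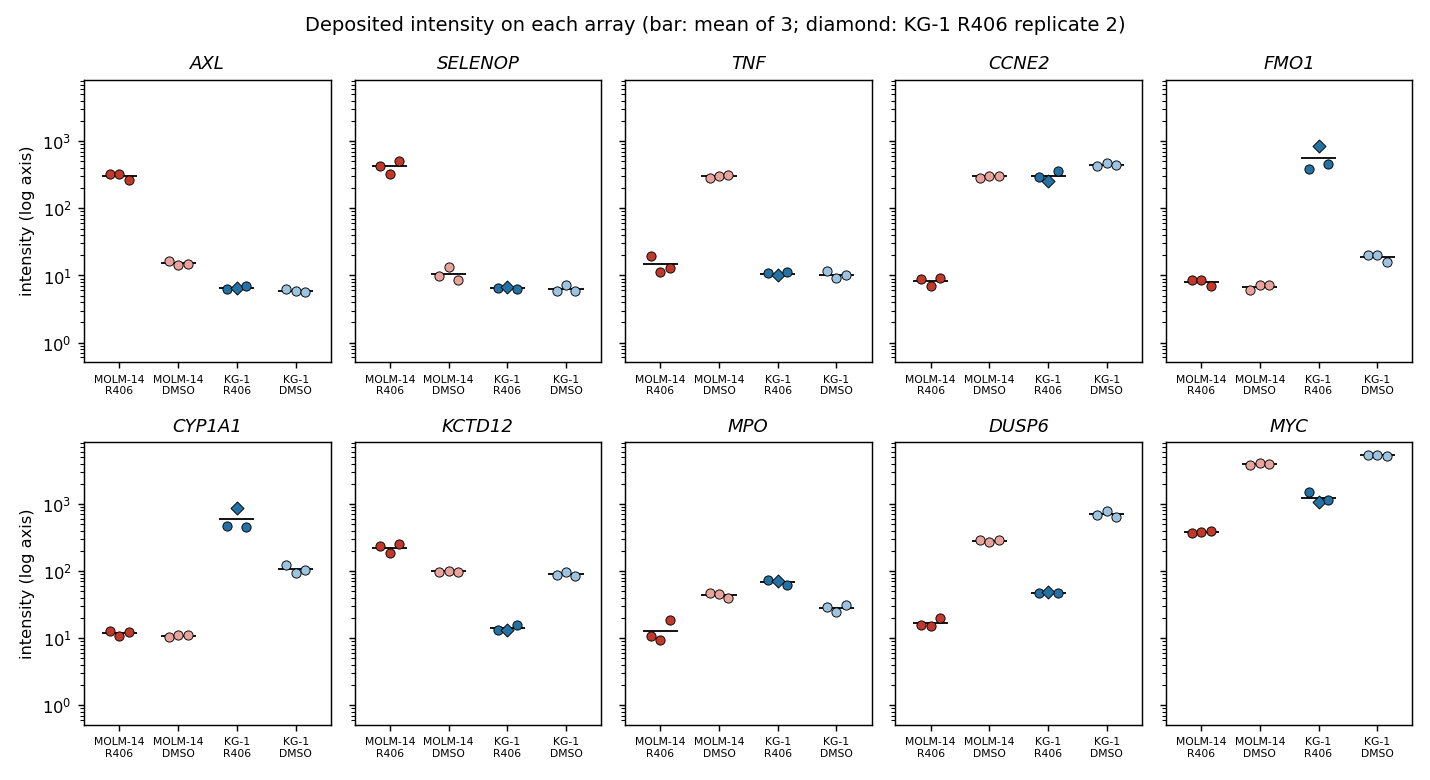
Deposited intensity (log axis) of 10 genes on each array of MOLM-14 with R406, MOLM-14 with DMSO, KG-1 with R406 and KG-1 with DMSO; bars are means of 3 arrays and the diamond is KG-1 R406 replicate 2. AXL and SELENOP rose in MOLM-14 and did not pass in KG-1, TNF and CCNE2 fell to dim levels in MOLM-14, FMO1 and CYP1A1 rose in KG-1, KCTD12 and MPO moved in opposite directions, and DUSP6 and MYC fell in both lines.

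Growth genes fell in both lines and further in MOLM-14. MYC, the transcription factor that drives ribosome production and proliferation, had 366, 381 and 398 with R406 and 3853, 4122 and 4004 with DMSO in MOLM-14. Corresponding KG-1 values were 1510.0, 1056 and 1161 with R406 and 5292, 5316 and 5257 with DMSO. The gap between the lines was wider with R406 than with DMSO. MYC fell by 3.38 in MOLM-14 and fell by 2.11 in KG-1, a difference of -1.28 (adjusted p = 7.65e-08; -1.39 without KG-1 R406 replicate 2). Of 23 measured MYC targets and ribosome biogenesis genes, 20 fell in MOLM-14 (median -2.02) and 22 in KG-1 (median -1.51). For the difference 15 were lower and 1 higher, with a median of -0.44. NME1, a nucleoside diphosphate kinase, fell by 4.03 in MOLM-14 and fell by 2.47 in KG-1. NOP16, NOP56 and RRS1, factors of large ribosomal subunit assembly or RNA modification, differed by -0.77, -0.70 and -0.76, and 1 of the other probe sets of NOP16 passed with the opposite sign. The exception was FBL, the rRNA methylase fibrillarin, which differed by 0.64. MRTO4 and BYSL, also ribosome assembly factors, had differences of -0.32 and -0.23 that did not pass, and of -0.40 and -0.34 without KG-1 R406 replicate 2, which passed. The 23 cytosolic ribosomal protein genes measured had a median difference of 0.00, with 1 higher and none lower. By the same test at an unadjusted p under 0.05, 3 of them were higher and 0 lower.

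The replication and MYC target genes were read against the letters around their starts, because most members of both lists fell in both lines. The windows run from 250 bases before to 50 bases after the start of each gene, on the strand of the gene, from RefSeq (GRCh38.p14). The letters TTTGGCGC or TTTCGCGC on either strand, a form of the E2F motif, stood in 10 of the 24 replication genes with a window (41.7%), against 1.40% of 27305 genes. The E-box CACGTG, which is its own reverse complement, stood in 11 of the 19 MYC target genes with a window (57.9%), against 8.77% of all genes. The lists were made of genes tied to E2F and to MYC, E2F1 and E2F2 among them, so these shares are no result about R406 or the lines. They are matches of letters and not bound sites. The window of MCM2 (chr3:127598161-127598460, plus strand) holds the E2F letters on both strands, overlapping, and that of POLE2 (chr14:49688165-49688464, minus strand) holds them once. The window of NME1 (chr17:51153309-51153608, plus strand) and that of SRM (chr1:11059969-11060268, minus strand) hold 1 E-box each. MCM2 and POLE2, parts of the replicative helicase and of DNA polymerase epsilon, differed strongly between the lines, by -2.30 and -1.78. NME1 differed by -1.56, and SRM, which makes spermidine, by -0.46. Of the genes with E2F letters, MCM2, MCM3, MCM6, MCM7, CDC6, CDC25A, GINS1 and POLE2 were lower for the difference. E2F1 (0.29) and E2F2 (0.28) hold them too and did not pass. Of the genes with the E-box, NME1, UTP20, NOP2, SRM, NOP14 and PES1 were lower. RRP9 (0.01), ODC1 (-0.03), MYBBP1A (-0.05) and MRTO4 (-0.32) hold it and did not pass. FBL, which holds an E-box too, was higher (0.64). Capitals mark the matched letters, and each list was searched for its own motif only. The MCM2 window also holds CACGTG, which is left in small letters.
MCM2: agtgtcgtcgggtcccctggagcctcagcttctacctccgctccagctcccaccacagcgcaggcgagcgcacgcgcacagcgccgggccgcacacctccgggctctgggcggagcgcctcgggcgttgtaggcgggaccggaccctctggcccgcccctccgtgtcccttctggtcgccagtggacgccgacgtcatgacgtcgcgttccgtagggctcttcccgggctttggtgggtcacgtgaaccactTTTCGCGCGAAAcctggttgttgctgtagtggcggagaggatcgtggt
POLE2: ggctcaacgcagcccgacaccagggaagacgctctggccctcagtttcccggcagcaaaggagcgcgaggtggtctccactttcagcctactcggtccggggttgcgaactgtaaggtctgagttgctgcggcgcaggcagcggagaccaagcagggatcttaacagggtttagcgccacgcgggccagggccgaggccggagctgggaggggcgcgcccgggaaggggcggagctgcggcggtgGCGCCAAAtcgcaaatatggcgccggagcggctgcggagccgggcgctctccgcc
NME1: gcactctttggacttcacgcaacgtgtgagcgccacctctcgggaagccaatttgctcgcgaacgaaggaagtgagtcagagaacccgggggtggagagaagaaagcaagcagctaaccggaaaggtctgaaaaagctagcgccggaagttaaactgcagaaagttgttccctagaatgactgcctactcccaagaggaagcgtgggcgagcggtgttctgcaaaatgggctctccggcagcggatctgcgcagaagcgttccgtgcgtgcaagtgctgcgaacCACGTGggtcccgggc
SRM: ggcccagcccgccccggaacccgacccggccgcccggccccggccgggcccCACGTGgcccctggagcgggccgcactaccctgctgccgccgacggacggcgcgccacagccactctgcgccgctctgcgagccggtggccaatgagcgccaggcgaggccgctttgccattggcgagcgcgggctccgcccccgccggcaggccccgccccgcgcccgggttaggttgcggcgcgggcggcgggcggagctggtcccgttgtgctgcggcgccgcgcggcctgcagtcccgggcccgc

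Genes of DNA replication showed the largest median difference among the 33 gene lists used here. Of 27 measured genes, 25 fell in MOLM-14 (median -2.95) and 25 in KG-1 (median -1.16). For the difference 25 were lower and none higher, with a median of -1.59, against 17.3% of all genes lower. Without KG-1 R406 replicate 2 the count was the same and the median -1.80. CCNE2, cyclin E2, which starts DNA replication with CDK2, had 8.90, 6.96 and 9.29 in MOLM-14 with R406 and 288, 304 and 309 with DMSO. KG-1 cells showed 294, 254 and 364 with R406 and 428, 480.0 and 439.6 with DMSO. The R406 level was dim in MOLM-14 and bright in KG-1, and CCNE2 fell by 5.01 in MOLM-14 and fell by 0.58 in KG-1 (difference -4.44, adjusted p = 2.98e-15). MCM2, whose window is printed above, had 127, 124 and 109 with R406 and 1092, 1029 and 1003 with DMSO in MOLM-14. In KG-1, MCM2 had 1265, 789 and 1374 with R406 and 1878, 1905 and 2083 with DMSO. Its KG-1 value in replicate 2 was the lowest of the 3 R406 arrays, and its difference was -2.30 with that array and -2.54 without it. CCNE1 and UNG, cyclin E1 and a uracil DNA glycosylase, differed by -2.32 and -1.52. The members that did not pass were E2F1 (0.29) and E2F2 (0.28), the activators for which such genes are named. POLE, the catalytic subunit of polymerase epsilon and not on the list, moved in opposite directions. It had 40.7, 41.6 and 36.7 with R406 and 119, 129 and 126 with DMSO in MOLM-14, and 446, 459.6 and 439.8 with R406 and 249.8, 227 and 233 with DMSO in KG-1.

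Mitosis genes depended on 1 array for their size in KG-1. Of 23 measured genes, all 23 fell in MOLM-14, with a median of -1.53. In KG-1, 13 fell and none rose, with a median of -0.45. On the 3 KG-1 R406 arrays the list median was -0.07, -1.04 and -0.11 against the KG-1 DMSO mean, with replicate 2 at -1.04. Without it, 8 fell, 7 rose and the median was -0.10. For the difference 22 were lower and none higher (median -0.98), and 23 were lower without replicate 2 (median -1.37). Leaving out KG-1 R406 replicate 1 gave 13 lower, leaving out replicate 3 gave 14, and the fit on the 12 arrays alone gave 13. CDK1, the kinase that starts mitosis, had 475, 529 and 485 with R406 and 1385, 1569 and 1536 with DMSO in MOLM-14. The KG-1 arrays gave 1124, 609 and 1054 with R406 and 1188, 1224 and 1221 with DMSO. Replicate 2 was the outlying array: the KG-1 effect was -0.43 with it and -0.15 without it, and the difference -1.16 and -1.44. TTK and MAD2L1 of the spindle checkpoint differed by -1.47 and -1.14. In the replication list the same array gave -1.58, against -1.003 and -0.96 in replicates 1 and 3.

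**Figure D3:**
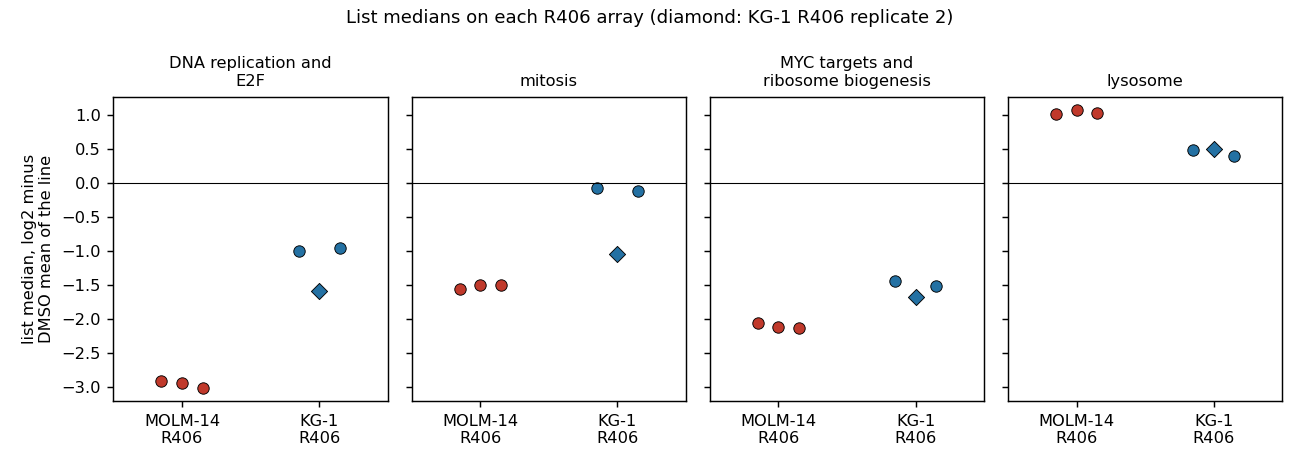
Median over the members of 4 gene lists on each R406 array (log2 minus the DMSO mean of the same line), MOLM-14 left and KG-1 right; the diamond is KG-1 R406 replicate 2. For mitosis the KG-1 arrays sit at -0.07, -1.04 and -0.11, while the MOLM-14 arrays lie between -1.56 and -1.50.

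Cholesterol, ATF4 and chaperone genes had lower medians in MOLM-14 than in KG-1, and energy metabolism did not share that gap. In cholesterol biosynthesis 14 of 15 measured genes fell in MOLM-14 and 11 in KG-1 (medians -1.26 and -0.65), and 9 were lower and none higher for the difference (median -0.42). SQLE, squalene epoxidase, had 24.1, 24.5 and 22.2 with R406 and 468, 443 and 451 with DMSO in MOLM-14. Its KG-1 intensities were 1833, 1607 and 1949 with R406 and 2490.0, 2488 and 2784 with DMSO, so that the drop was deep in MOLM-14 and shallow in KG-1 (difference -3.68). Its other probe sets gave -1.55 and -1.07. IDI1 and INSIG1, an isomerase and a sterol sensor partner, differed by -1.22 and -1.22. Of 24 measured genes of the ATF4 stress response, 18 fell in MOLM-14 and 19 in KG-1, and 11 were lower and 3 higher for the difference (median -0.21, or -0.38 without KG-1 R406 replicate 2). ASNS, which makes asparagine, fell by 2.20 in MOLM-14 and fell by 0.72 in KG-1. Of 16 endoplasmic reticulum chaperone and unfolded protein response genes, 9 were lower and none higher (median -0.45). XBP1, a transcription factor of that response, differed by -1.73 and CALR, the chaperone calreticulin, by -1.16. In glycolysis 14 of 23 fell in MOLM-14 and 16 in KG-1 (medians -0.40 and -0.63), and 10 were lower and 3 higher for the difference (median -0.05). Of the 20 oxidative phosphorylation genes 14 fell in each line (medians -0.39 and -0.41). For the difference 3 were lower and 2 higher, or 6 and 3 without KG-1 R406 replicate 2.

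The genes highest for the difference included several that rose in MOLM-14 and whose KG-1 effect did not pass. SELENOP, a selenium carrier protein, had 430.4, 324 and 510.3 with R406 and 9.97, 13.2 and 8.70 with DMSO in MOLM-14. KG-1 cells showed 6.43, 6.78 and 6.21 with R406 and 5.80, 7.29 and 5.87 with DMSO, dim on all 6 arrays. The difference was 5.14 (SE 0.19, adjusted p = 6.72e-15). AXL, a receptor tyrosine kinase that binds GAS6, had 325, 328 and 268 with R406 and 16.6, 14.5 and 14.8 with DMSO in MOLM-14. In KG-1, AXL had 6.19, 6.51 and 6.996 with R406 and 6.37, 5.89 and 5.61 with DMSO. The MOLM-14 groups did not overlap and the KG-1 groups did, with a difference of 4.12 (adjusted p = 2.98e-15). The other AXL probe set passed the same way with 0.33. HES1, a repressor downstream of Notch, rose by 3.81 in MOLM-14 and fell by 0.99 in KG-1. That rests on 1 probe set, since the other 2 gave -0.11 and 0.31 and did not pass. The hormone gene PRL, the secreted inhibitor of vessel growth SERPINF1 and the prostaglandin synthase PTGDS differed by 3.99, 3.96 and 3.64. The membrane protein CD9 differed by 3.28.

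Several receptors of myeloid cells were also higher for the difference. Of 22 cytokine and growth factor receptor genes, 9 were higher (15.0% of all genes) and 5 lower (17.3%), with a median of 0.17. IL10RA, the ligand-binding chain of the interleukin-10 receptor, had 151, 161 and 169.5 with R406 and 18.1, 14.3 and 18.7 with DMSO in MOLM-14. The KG-1 arrays gave 8.19, 8.23 and 7.03 with R406 and 8.47, 8.96 and 7.36 with DMSO. CSF1R, the receptor for macrophage colony-stimulating factor, had 61.5, 78.2 and 82.6 with R406 and 16.8, 17.4 and 17.1 with DMSO in MOLM-14. Its KG-1 intensities were 13.9, 14.2 and 14.3 with R406 and 17.2, 12.6 and 15.00 with DMSO. Both receptor genes were bright in MOLM-14 with R406 and dim in the other 3 groups (differences 3.24 and 2.11). IL13RA1, a chain of the interleukin-13 receptor, and CSF3R, the receptor for granulocyte colony-stimulating factor, differed by 2.50 and 1.56. CSF3R rose in KG-1 too, by 0.51, or 0.65 without KG-1 R406 replicate 2. Those lower were led by CSF2RB (-0.82), the shared beta chain of the interleukin-3, interleukin-5 and GM-CSF receptors. FGFR1, fused in KG-1, rose by 0.61 in MOLM-14 and 0.75 in KG-1, and the difference of -0.14 did not pass. One of its other probe sets passed with the opposite sign.

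Monocyte and macrophage genes did not move as a group. Of 22 measured, 8 were higher and 5 lower, with a median of 0.09 (0.04 without KG-1 R406 replicate 2). With DMSO, 14 of the 22 were dim in MOLM-14 and 20 in KG-1, where a fall of those cannot be read. CD86, a costimulatory ligand for T cells, and the scavenger receptor CD36 rose by 3.16 and 2.34 in MOLM-14. In KG-1 their effects of -0.18 and 0.20 did not pass, nor did those of 0.08 and 0.27 without KG-1 R406 replicate 2. S100A9 and MNDA, markers of monocytes, fell in MOLM-14, with effects of -2.85 and -1.31. CD14 was dim in all 4 groups. Among 17 granulocyte genes, 2 were higher and 2 lower, against 15.0% and 17.3% of all genes. With DMSO, 16 of the 17 were dim in MOLM-14 and 13 in KG-1.

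SYK and its partners moved mildly, with exceptions. SYK had 272, 291 and 313 with R406 and 346, 342 and 355 with DMSO in MOLM-14. KG-1 cells showed 730.1, 643 and 739 with R406 and 549, 523 and 534 with DMSO. The mRNA of the drug target thus fell by 0.25 in MOLM-14 and rose by 0.39 in KG-1, without overlap in either line (difference -0.64, adjusted p = 1.26e-05). Of 20 measured genes of SYK and ITAM signalling, 12 rose and 5 fell in MOLM-14, and 15 rose and 1 fell in KG-1. Over all genes 30.7% rose and 24.8% fell in MOLM-14, and 23.3% rose and 20.6% fell in KG-1. For the difference 5 were higher and 5 lower, with a median of -0.06 (-0.13 without KG-1 R406 replicate 2). BLNK, an adaptor that SYK phosphorylates, had 182, 128 and 206 with R406 and 19.5, 20.7 and 20.05 with DMSO in MOLM-14, and was dim in KG-1 at 5.70, 5.81 and 5.92 with R406 and 6.24, 6.72 and 6.69 with DMSO. TYROBP, an ITAM adaptor also called DAP12, had 1043, 1041 and 919 with R406 and 148, 120.0 and 134 with DMSO in MOLM-14. In KG-1, TYROBP had 114, 155 and 115 with R406 and 42.1, 37.97 and 40.7 with DMSO, a rise in both lines that was larger in MOLM-14 (difference 1.26). INPP5D, the lipid phosphatase SHIP1, and CLEC7A, the ITAM-like receptor Dectin-1, were lower for the difference, by -0.57 and -1.06.

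Integrins and adhesion genes gave 8 higher and 5 lower of 18, with a median of 0.21. ITGAM, the alpha M chain of an integrin of myeloid cells, had 95.7, 105 and 82.6 with R406 and 61.8, 63.2 and 73.5 with DMSO in MOLM-14. The KG-1 arrays gave 141, 140.1 and 136 with R406 and 510.3, 478 and 472 with DMSO. It rose in MOLM-14 by 0.51 and fell in KG-1 by 1.80 (difference 2.31), while its other probe set gave 0.04 and did not pass. Its beta partner ITGB2 differed by -0.75 and the hyaluronan receptor CD44 by 0.81. Of the 7 other CD44 probe sets 1 passed the same way, and they ranged from -0.25 to 0.42. The vitronectin receptor chain ITGAV rose in both lines (0.96 in MOLM-14 and 1.20 in KG-1), and its difference of -0.23 did not pass. That of ITGB3 (-0.10) did not pass either, and ITGB3 was dim in all 4 groups (means 7.66 to 9.37). The ITGAV difference was -0.10 without KG-1 R406 replicate 2.

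Lysosome genes rose in both lines and further in MOLM-14. Of 25 measured, 22 rose in MOLM-14 (median 0.99) and 19 in KG-1 (median 0.49). For the difference 16 were higher and 1 lower (2 without KG-1 R406 replicate 2), with a median of 0.42. GRN, progranulin, rose by 1.45 in MOLM-14 and 0.22 in KG-1, or 0.34 without replicate 2. CTSD, the protease cathepsin D, and PSAP, the precursor of the saposins, differed by 1.24 and 0.90. The lower one was CTSH, the protease cathepsin H, at -1.09. The 11 MHC class II genes measured had medians of 0.94 in MOLM-14 and 0.97 in KG-1, and 3 were higher and 1 lower for the difference. Dim with DMSO were 6 of the 11 in MOLM-14 and 2 in KG-1. HLA-DRA, the alpha chain of HLA-DR, had 561, 499.9 and 518 with R406 and 80.4, 70.8 and 80.1 with DMSO in MOLM-14. Its KG-1 intensities were 4489.6, 4821 and 4431 with R406 and 2961, 2668 and 2563 with DMSO, so that the level with R406 in MOLM-14 was still below that of KG-1 with DMSO. HLA-DPB1, the beta chain of HLA-DP, was dim in MOLM-14 and rose in KG-1 by 0.97 (difference -0.57).

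Most replication-dependent histone genes rose in MOLM-14, and fewer than that did in KG-1. Their main transcripts end in a stem-loop and carry no poly(A) tail, and many of their probe sets can bind near-identical copies, so single members are uncertain. Of 45 measured, 39 rose and 1 fell in MOLM-14 (median 1.496), and 19 rose and none fell in KG-1 (median 0.28). With DMSO, 38 of the 45 were dim in MOLM-14 and 36 in KG-1. For the difference 31 were higher and 1 lower, with a median of 0.81. With the dimmest 33.3% of probe sets left out, which can remove members from the list, 20 of those that remained were higher. H2AC17 had 168, 150.1 and 192 with R406 and 6.21, 6.86 and 5.34 with DMSO in MOLM-14. KG-1 cells showed 11.1, 17.96 and 10.3 with R406 and 7.66, 7.51 and 6.97 with DMSO, with replicate 2 the highest. H2AC6 rose in both lines, by 5.60 in MOLM-14 and 4.86 in KG-1. The lower one was H2BC21, which had 40.4, 41.3 and 31.2 with R406 and 10.2, 15.03 and 15.2 with DMSO in MOLM-14. In KG-1, H2BC21 had 178, 382 and 127 with R406 and 20.8, 18.2 and 17.9 with DMSO. Its difference was -1.95 with KG-1 R406 replicate 2 and -1.50 without it.

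Genes linked to FOXO factors and quiescence rose: 19 of 20 did in MOLM-14 and 16 in KG-1 (medians 1.16 and 0.70). For the difference 9 were higher and 3 lower, with a median of 0.49. TSC22D3, a glucocorticoid-induced leucine zipper protein, and BTG1, an antiproliferative factor, differed by 1.72 and 1.30. Of 14 p53 targets, 8 were higher and 2 lower (median 0.41). The higher count ran from 3 to 9 over the alternatives. Without KG-1 R406 replicate 2 it was 6, and it was 5 without MOLM-14 R406 replicate 1, without MOLM-14 DMSO replicate 1 and without KG-1 DMSO replicate 1. XPC, a DNA damage sensor, differed by 0.92 and GADD45A, a growth arrest gene, by -0.90. CDKN1A, which encodes the inhibitor p21, had a difference of 0.19 that did not pass (0.06 without KG-1 R406 replicate 2). Of 23 interferon response genes, 9 were higher and none lower (median 0.24). Dim with DMSO were 14 of the 23 in MOLM-14 and 9 in KG-1, where a fall of those cannot be read. ISG20, an exonuclease, and IRF9, a subunit of the interferon-stimulated factor, differed by 2.73 and 1.37. HMOX1, haem oxygenase 1, rose by 2.83 in MOLM-14 and 0.92 in KG-1 (difference 1.91).

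**Figure D4:**
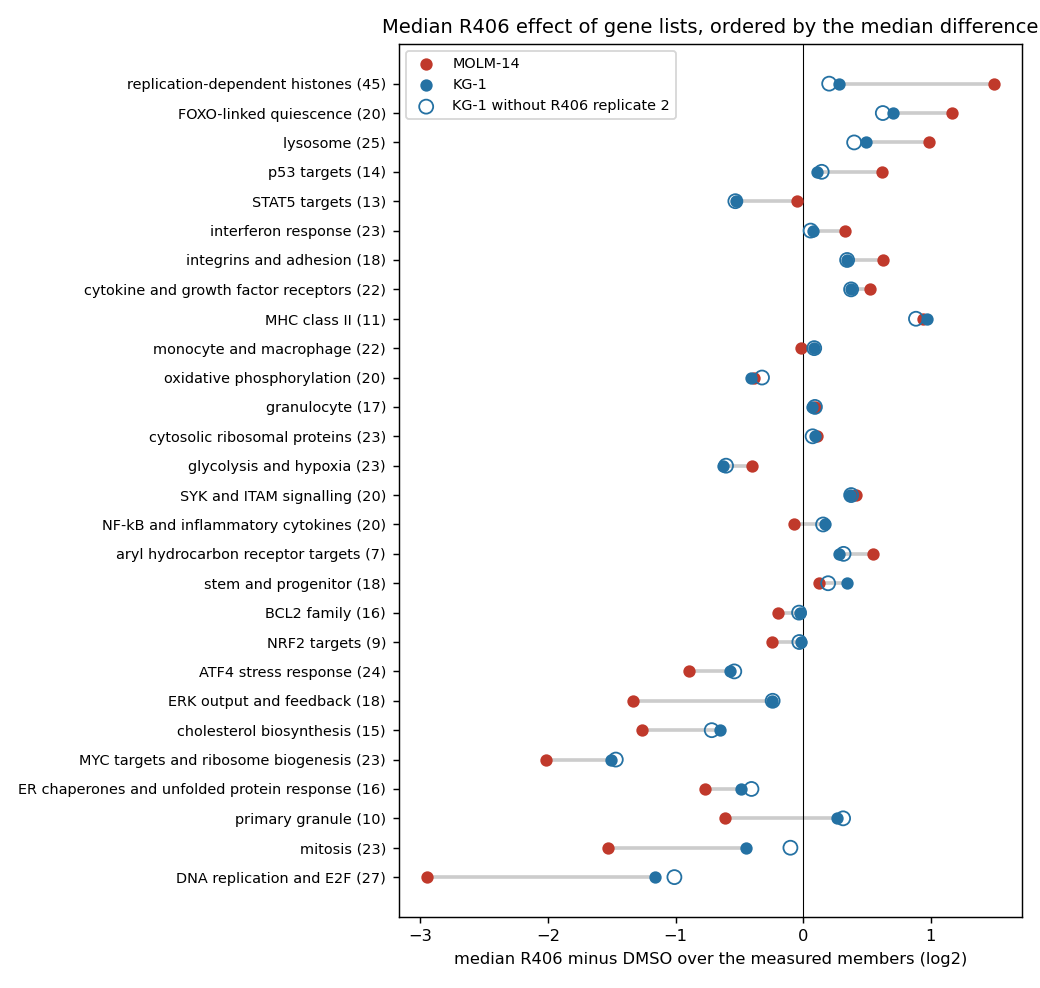
Median R406 minus DMSO effect (log2) over the measured members of each gene list (number in brackets) in MOLM-14 (red), in KG-1 (blue) and in KG-1 without R406 replicate 2 (open circles), ordered by the median of the difference. Replication genes have medians of -2.95 in MOLM-14 and -1.16 in KG-1, histones 1.496 and 0.28, and mitosis -1.53 in MOLM-14 and -0.45 in KG-1, or -0.10 without that array.

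Among the genes lowest for the difference, several were present in MOLM-14 and dim in KG-1. TNF, the inflammatory cytokine, had 19.5, 11.2 and 13.1 with R406 and 286, 300.1 and 319 with DMSO in MOLM-14. The KG-1 arrays gave 10.7, 10.00 and 11.3 with R406 and 11.6, 9.10 and 10.3 with DMSO. It fell in MOLM-14 to the level of KG-1, which was dim in both treatments (difference -4.36, adjusted p = 1.41e-12). ACP3, an acid phosphatase, had 49.1, 51.8 and 56.7 with R406 and 755, 681 and 688 with DMSO in MOLM-14, and was dim in KG-1 at 16.9, 16.7 and 19.4 with R406 and 14.3, 11.5 and 15.7 with DMSO. GAL, the neuropeptide galanin, TBC1D30, a RAB regulator, and MARCKSL1, a membrane-bound actin regulator, differed by -3.74, -3.88 and -3.26. The other GAL probe set gave -0.17 and did not pass. Of 20 NF-kB and inflammatory cytokine genes, 7 were lower and 3 higher, with a median of -0.09, against 17.3% and 15.0% of all genes. With DMSO, 12 of the 20 were dim in MOLM-14 and 11 in KG-1.

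Of the primary granule genes, MPO, PRTN3, RNASE2 and SRGN fell in MOLM-14 and rose in KG-1. Of 10 measured, 7 fell and 1 rose in MOLM-14 (median -0.61), and 5 rose and 2 fell in KG-1 (median 0.26). The shares over all genes were 24.8% falling and 30.7% rising in MOLM-14, and 23.3% rising and 20.6% falling in KG-1. With DMSO, none of the 10 was dim in MOLM-14 and 5 were in KG-1, where a fall of those cannot be read. For the difference 6 were lower and 1 higher (median -0.92), and 6 lower and 2 higher without KG-1 R406 replicate 2. MPO, myeloperoxidase, had 10.8, 9.40 and 18.8 with R406 and 47.2, 44.9 and 39.97 with DMSO in MOLM-14. Its KG-1 intensities were 73.4, 71.9 and 62.4 with R406 and 29.5, 24.5 and 31.6 with DMSO. Neither pair of groups overlapped, and the difference was -2.99 (adjusted p = 2.68e-10; -2.96 without KG-1 R406 replicate 2). PRTN3, proteinase 3, had 35.6, 44.3 and 34.1 with R406 and 343, 372 and 359 with DMSO in MOLM-14. KG-1 cells showed 23.8, 37.3 and 17.1 with R406 and 11.7, 15.1 and 19.4 with DMSO, groups that overlapped (effect 0.68, or 0.40 without replicate 2). RNASE2, a granule ribonuclease, and SRGN, the granule proteoglycan serglycin, differed by -1.14 and -0.91. The higher one was CTSG, the granule protease cathepsin G, at 0.76.

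Some genes rose in KG-1 and not in MOLM-14. FMO1, a flavin-containing monooxygenase, had 8.47, 8.63 and 7.03 with R406 and 6.09, 7.23 and 7.23 with DMSO in MOLM-14, dim throughout. In KG-1, FMO1 had 386, 839 and 465 with R406 and 20.2, 20.03 and 15.9 with DMSO. Replicate 2 was the highest, and the difference was -4.56 with it and -4.23 without it. ADGRG6, an adhesion G protein-coupled receptor, was under 7 on all MOLM-14 arrays and had 155, 419 and 179 with R406 and 10.4, 7.97 and 7.70 with DMSO in KG-1 (difference -4.52). COL3A1, the chain of type III collagen, had 67.8, 116 and 75.2 with R406 and 8.40, 8.94 and 8.19 with DMSO in KG-1 (difference -3.10). CXCL8, the neutrophil chemokine interleukin-8, had an effect of -0.21 in MOLM-14 that did not pass. In KG-1, CXCL8 had 221, 187 and 229.6 with R406 and 57.5, 56.02 and 62.00 with DMSO. Of its 8 other probe sets, 1 passed the same way and 1 with the opposite sign. TNFAIP3, an inhibitor of NF-kB signalling, fell by 0.51 in MOLM-14 and rose by 0.95 in KG-1.

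The aryl hydrocarbon receptor, a ligand-activated factor, and its targets did not move as a group. CYP1A1, the target best known as its readout, had 12.7, 10.9 and 12.5 with R406 and 10.4, 11.1 and 11.04 with DMSO in MOLM-14, dim on all 6 arrays. The KG-1 arrays gave 477, 857 and 449 with R406 and 125, 94.7 and 102 with DMSO (difference -2.26, or -1.97 without replicate 2). CYP1B1, a related enzyme, rose in both lines and further in MOLM-14 (2.06 in MOLM-14 and 0.74 in KG-1). The receptor gene AHR had 56.4, 52.7 and 55.2 with R406 and 37.8, 38.8 and 35.2 with DMSO in MOLM-14. Its KG-1 intensities were 159, 156 and 149.9 with R406 and 324, 359 and 285 with DMSO, a rise in MOLM-14 and a fall in KG-1 with no overlap in either (difference 1.59). Of the 7 genes measured, 3 were higher and 3 lower, and 2 and 2 without replicate 2.

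Of 18 stem and progenitor genes, 7 rose and 3 fell in MOLM-14, and 10 rose and 1 fell in KG-1. The shares over all genes were 30.7% and 24.8% in MOLM-14 and 23.3% and 20.6% in KG-1. Dim with DMSO were 11 of the 18 in MOLM-14 and 5 in KG-1, where a fall of those cannot be read. For the difference 6 were lower and 4 higher, with a median of -0.14. CD34 was dim on all MOLM-14 arrays and had 1011, 893 and 1095 with R406 and 557, 732 and 549 with DMSO in KG-1 (difference -0.83). MN1, a transcriptional coregulator, was under 7 on all MOLM-14 arrays and had 183, 200.4 and 136 with R406 and 48.9, 56.6 and 45.6 with DMSO in KG-1 (difference -1.64). MYB, a transcription factor of progenitors, fell by 0.21 in MOLM-14 and rose by 0.71 in KG-1, while its other probe set differed by -0.19, which did not pass. GATA2, another such factor, fell by 1.09 in MOLM-14. Its KG-1 effect rested on KG-1 R406 replicate 2, at 0.40 with that array (adjusted p = 0.0389) and 0.19 without it, which did not pass (adjusted p = 0.346). MEIS1 rose in both lines, by 1.03 in MOLM-14 and 0.66 in KG-1 (difference 0.38). LMO2, a bridging factor of blood progenitors, rose by 0.81 in MOLM-14 and fell by 0.31 in KG-1.

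Of the 296 genes that passed with opposite signs, 130 rose in MOLM-14 and fell in KG-1, and 166 fell in MOLM-14 and rose in KG-1. Among the first, KCTD12, an auxiliary subunit of GABA-B receptors, had 235, 188 and 249.7 with R406 and 96.9, 101 and 98.2 with DMSO in MOLM-14. KG-1 cells showed 13.4, 13.4 and 15.7 with R406 and 86.2, 96.1 and 84.7 with DMSO. The lines had nearly the same level with DMSO and parted with R406 (difference 3.74, adjusted p = 7.58e-13), and the other probe set gave 3.32. TNFSF10, the death ligand TRAIL, had 82.4, 112 and 103 with R406 and 25.6, 32.4 and 35.01 with DMSO in MOLM-14. In KG-1, TNFSF10 had 159, 175 and 195 with R406 and 442, 402 and 395 with DMSO. FKBP11, a prolyl isomerase of the secretory pathway, differed by 2.85, and CKB, creatine kinase B, by 2.30. VEGFA, the vascular growth factor, rose by 0.51 in MOLM-14 and fell by 1.08 in KG-1.

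Among those that fell in MOLM-14 and rose in KG-1, SDC4, the heparan sulfate proteoglycan syndecan-4, had 13.8, 14.8 and 16.8 with R406 and 45.7, 44.6 and 40.8 with DMSO in MOLM-14. Intensities in KG-1 were 265, 183 and 261 with R406 and 64.4, 56.97 and 58.2 with DMSO (difference -3.42). DDIT4, an inhibitor of mTORC1, had 580.5, 489 and 490.1 with R406 and 1112, 1138 and 1096 with DMSO in MOLM-14. Corresponding KG-1 values were 242, 280.3 and 267 with R406 and 112, 102 and 118 with DMSO, so that R406 brought the lines closer (difference -2.35). BCL2A1, an antiapoptotic BCL2 relative, had 20.02, 19.2 and 16.2 with R406 and 30.3, 30.3 and 36.4 with DMSO in MOLM-14. KG-1 cells showed 301, 305 and 277 with R406 and 168, 188 and 164 with DMSO (difference -1.54). Among the 16 BCL2 family genes, 5 were higher and 5 lower. The higher count was 2 without MOLM-14 DMSO replicate 1, and 3 without MOLM-14 R406 replicate 1, without KG-1 R406 replicate 2 and without KG-1 DMSO replicate 3.

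**Figure D5:**
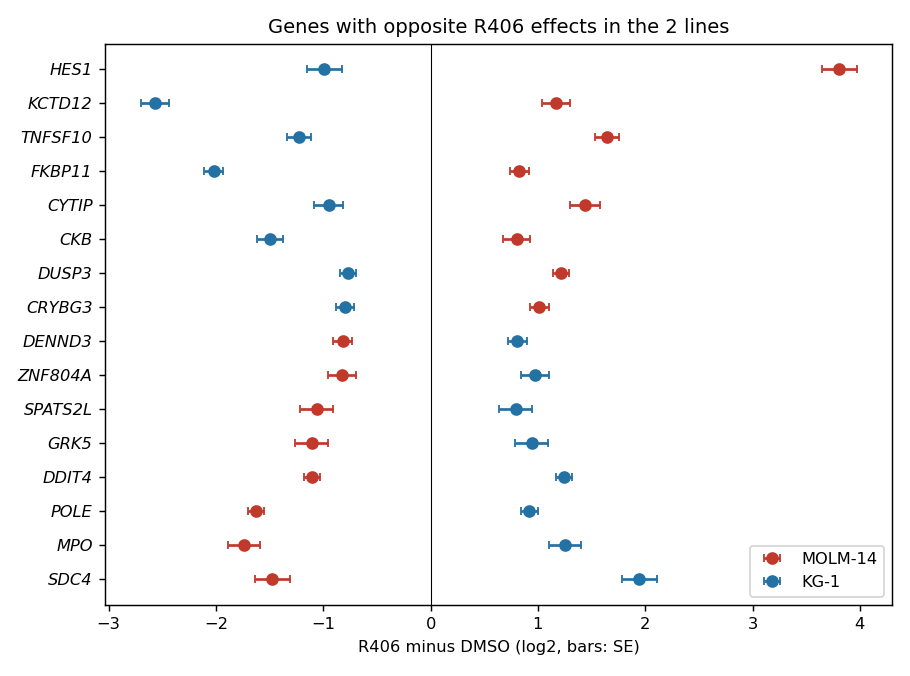
R406 minus DMSO (log2, bars are SE from the fit) in MOLM-14 (red) and KG-1 (blue) for the 16 genes, 8 each way, whose smaller effect was largest among those with opposite signs. HES1 and KCTD12 rose in MOLM-14 and fell in KG-1, and SDC4 and MPO did the reverse.

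Markers of other cell types were mostly dim. Of 13 erythroid markers, 1 was higher and 1 lower, and the summed intensity was 177 to 212 in MOLM-14 with R406 and 177 to 207 with DMSO, and 924 to 1038 in KG-1 with R406 and 816 to 879.5 with DMSO. HBD, the delta globin gene, rose by 1.83 in KG-1. The 16 fibroblast and epithelial markers summed to 390 to 449 in MOLM-14 with R406 and 380 to 386 with DMSO, and to 435 to 674 in KG-1 with R406 and 217 to 247 with DMSO. For the difference 2 were higher, KRT8 (0.97) and MUC1 (0.92), and 3 lower, COL3A1, COL5A1 (-1.72) and KRT18 (-0.82). In KG-1, COL3A1, COL5A1 and KRT18 rose, COL1A1 (-0.14) and COL1A2 (0.14) did not pass, and 13 of the 16 were dim with R406. The 16 T and NK cell markers summed to 413 to 449 in MOLM-14 with R406 and 275 to 293 with DMSO, and to 827 to 1037 in KG-1 with R406 and 483 to 500.3 with DMSO. For the difference 1 was higher, GNLY (0.36), and 2 lower, LCK (-1.34) and KLRB1 (-1.28, or -0.80 without KG-1 R406 replicate 2), and without that array 4 were lower. NKG7 rose in both lines, by 0.94 in MOLM-14 and 1.01 in KG-1. The T cell receptor chains CD3D (-0.02), CD3E (-0.32) and CD3G (0.04) did not pass. None of 10 B cell markers passed, or 1 without KG-1 R406 replicate 2, and 2 of 12 megakaryocyte markers were higher, ITGA2B (1.97) and VWF (0.91). By the same test at an unadjusted p under 0.05, 2 of the 10 B cell markers differed. The part of other cell types in the results was not tested.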

How the data were processed

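The 24 samples were hybridised to Affymetrix HT U133 arrays (A set), 3 for each of 4 leukaemia lines with R406 or DMSO. Per the submitters' processing notes, the deposited intensities were made with RMA, and no version is given. They range from 3.41 to 12686, which is a linear scale. An array gives no read depth, so the number of arrays limits the precision. The table held 22277 probe sets. Controls (62), probe sets annotated to more than 1 symbol (568) and unnamed ones (1923) were left out, and 19724 remained. All 24 arrays were fitted as 8 groups with limma 3.58.1 in R 4.3.3 on log2(intensity + 1), with 16 residual degrees of freedom and 1 variance per probe set. The contrast was (MOLM-14 R406 minus DMSO) minus (KG-1 R406 minus DMSO), and p-values were Benjamini-Hochberg adjusted over all 19724 probe sets, with calls at an adjusted p under 0.05. Each of the 12165 genes was represented by its brightest probe set on average, and dim genes were kept. Differences of genes that are dim in 1 line are compressed on this scale. The script was tested on simulated data.

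The genes named are only part of those that a rule picked. It took the 12 highest and 12 lowest differences that also passed without KG-1 R406 replicate 2, and the 8 strongest genes each way with opposite effects. It also took the 6 highest and 6 lowest KG-1 effects larger than those of MOLM-14, and up to 4 members of each gene list by smallest p. The 8 strongest shared effects and a list of 18 genes completed it. Members, lists and tests were chosen with earlier results of these data known. FBL, CTSH, CLEC7A, CSF2RB, DUSP4, SPRED2, S100A9, MNDA, KIT, SPINK2, CTSG, H2AC6, SRM, POLE2, COL1A1, COL1A2, CD3D, CD3E, CD3G, NKG7, MUC1, RRP9, ODC1, MYBBP1A, E2F1 and E2F2 were named after their values were seen. So were MCM3, MCM6, MCM7, CDC6, CDC25A, GINS1, UTP20, NOP2, NOP14 and PES1. Lists are described by counts and medians, to be read against the shares and medians over all genes, and no set test was run. Deviations of R406 and DMSO arrays with the same replicate number correlated at -0.08 to 0.08, and those with unlike numbers at -0.12 to 0.14. Deviations from means of 3 arrays cannot exclude a weak pairing, and the main fit used none. Alternatives were other pseudocounts, filters, normalizations, variance models, probe set rules, array weights, the 12 arrays alone and each array left out. Sequences are from RefSeq.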

Additional observations from a re-analysis of the deposited data

Results flagged for a closer look

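The R406 effect was tested for a difference between the 2 lines, and the results below passed that test (limma, adjusted p under 0.05). At the level of counts, 1829 genes were higher and 2109 lower in MOLM-14 than in KG-1.

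Genes below passed in both lines with opposite signs. Those with a rise in MOLM-14 and a fall in KG-1 had these differences on the log2 scale. HES1 differed by 4.80, on 1 of 3 probe sets, and KCTD12 by 3.74. TNFSF10 differed by 2.87 and FKBP11 by 2.85. CYTIP, a scaffold protein of blood cells, differed by 2.39 and CKB by 2.30. ITGAM differed by 2.31, on 1 of 2 probe sets, and DUSP3, a dual-specificity phosphatase, by 1.99. ITGA2B, a platelet integrin chain, differed by 1.97, AHR by 1.59 and VEGFA by 1.59. VLDLR, a lipoprotein receptor, differed by 1.24 and LMO2 by 1.12.

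The others fell in MOLM-14 and rose in KG-1. ACP3 differed by -4.07 and PRTN3 by -3.89, both dim or nearly so in KG-1. SDC4 differed by -3.42 and MPO by -2.99. POLE differed by -2.55 and DDIT4 by -2.35. BCL2A1 differed by -1.54, GATA2 by -1.49 and TNFAIP3 by -1.47. The KG-1 effect of GATA2 did not pass without KG-1 R406 replicate 2 (0.19, adjusted p = 0.346). RNASE2 differed by -1.14, MYB by -0.92, SRGN by -0.91 and SYK by -0.64.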

How the results depend on the processing

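No count over all genes or all probe sets moved by more than 1.5 times under any of the alternatives run. Counts within single gene lists were less steady: 107 values moved by more than 1.5 times and 1345 did not, and the fit on the 12 arrays alone gave 13 lower mitosis genes, 5 higher p53 targets and 3 higher BCL2 family genes. Without KG-1 R406 replicate 2 as well, an alternative chosen after seeing the data, that fit gave 3 higher p53 targets, 1 higher BCL2 family gene and 3 lower monocyte and macrophage genes, and repeated quantile normalization gave 3 lower BCL2 family genes. Leaving out 1 array at a time, the genes higher for the difference numbered 1639 to 1891 and those lower 1923 to 2205, and the probe sets 2350 to 2758 and 2908 to 3303. The genes that rose in MOLM-14 numbered 3396 to 3808 and those that fell 2884 to 3057, and in KG-1 2610 to 2885 and 2327 to 2569. With the replicate number of each line as a block, 1744 genes were higher and 2044 lower, which changed neither by 1.5 times. The labels give no pairing beyond that number. Higher genes made up 46.4% of those called, against 52.8% with repeated quantile normalization and 51.6% with arrays centred on their median. Over the alternatives, 2611 values of the named genes followed kept sign and call, 20 values of genes that had not passed came to pass, and 6 changed sign. None of the 6 belonged to a gene that had passed: DUSP6 gave 0.31 with a pseudocount of 16 and 0.10 with probe sets averaged, and with averaging ETV5 gave 0.24, ITGB3 0.039 and FGFR1 0.034. CD14 ranged from -0.19 to 0.041 with 1 array left out, the last without MOLM-14 R406 replicate 1. The difference of FLT3 passed with a pseudocount of 16 (0.43, adjusted p = 0.00575). For those values the cause was not tested. No gene followed that had passed for the difference lost its call where it was tested. Signal near background limits genes dim in 1 line.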

Other observations

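The same genes were read in U937, a histiocytic lymphoma line of monocytic character, and HL-60, a promyelocytic leukaemia line, with 3 R406 and 3 DMSO arrays each. Values are R406 minus DMSO on the log2 scale from the same fit. AXL gave -0.12 in U937 and 0.02 in HL-60, and SELENOP 0.05 and -0.08, none of which passed. FMO1 gave -0.06 in U937 and 0.13 in HL-60, and ADGRG6 -0.02 and -0.10, none of which passed either. DUSP6, which fell in both MOLM-14 and KG-1, gave 0.03 in U937, which did not pass, and 1.10 in HL-60, a rise that did. MYC fell in both, by 0.80 in U937 and 0.62 in HL-60. EGR1 fell by 1.42 in U937 and rose by 3.69 in HL-60. TNF fell by 0.63 in U937 and rose by 1.35 in HL-60. CXCL8 fell by 1.35 in U937 and rose by 1.17 in HL-60. CYP1A1 rose by 1.28 in U937 and gave 0.05 in HL-60, which did not pass. PRTN3 gave -0.26 in U937, which did not pass, and fell by 2.36 in HL-60. TYROBP and HMOX1 rose in all 4 lines, by 0.92 and 1.38 in U937 and by 0.50 and 1.13 in HL-60. ITGAM rose by 0.76 in U937 and 0.71 in HL-60. CCNE2 gave -0.12 in U937, which did not pass, and rose by 0.60 in HL-60. Differences between these lines and the others were not tested.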
